A study of Mus musculus with 3 samples.

Results

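Complement is a set of blood and tissue proteins that mark microbes and dying cells for uptake and start inflammation. The genes described here are 9 complement genes chosen by name, out of 55536 annotated genes in the tables. They are the C1q chains C1qa, C1qb and C1qc, the central component C3, factor B (Cfb), properdin (Cfp), the C3a receptor C3ar1 and the membrane inhibitors Cd55 and Cd59a. Bone marrow-derived macrophages (BMDM) of C57BL/6J mice received lipid A at 100 ng/ml for 50 min, and total RNA of the cytosol was sequenced after ribosomal RNA had been removed. Lipid A is the part of bacterial lipopolysaccharide that Toll-like receptor 4 recognises. The series holds 3 libraries of this group, called libraries 1, 2 and 3 after the replicate numbers in the labels. The labels number them as biological replicates, give all of them the same donor, do not say whether animals or cultures were separate, and record neither age nor sex. A p-value here measures the spread among the libraries, which may be technical. All 3 libraries had received lipid A, so no value below is a response to it.

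In the classical pathway, C1q binds immune complexes or dying cells and starts cleavage of C4, C2 and then C3. In the alternative pathway, factor B joins C3b to form an enzyme that cleaves more C3, and properdin stabilises that enzyme. C3a, released from C3, signals through C3ar1, while CD55 takes the convertases apart and CD59 blocks the membrane attack complex. Macrophages are a known source of C1q and properdin, and the liver makes most C3 and factor B of the blood.

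The 3 C1q genes lie side by side on chromosome 4 of mm10, within 18675 bp (136880129 to 136898803), all on the minus strand. Gaps of 3616 bp between C1qb and C1qc and of 2851 bp between C1qc and C1qa hold no annotated gene. C3 (chromosome 17, 57203970 to 57228136) and Cfb (chromosome 17, 34856374 to 34862518) are on the same chromosome, and the other members are on 4 different ones. C3ar1 is on chromosome 6 (122847138 to 122856161), Cfp on chromosome X (20925454 to 20931555), Cd55 on chromosome 1 (130439027 to 130462744) and Cd59a on chromosome 2 (104095801 to 104115354).

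RefSeq promoter windows (GRCm38.p6, the assembly of mm10) were found for 7 of the 9 members, with no entry for C1qa and Cfb. The 250 bases before the start are shown for C1qb, the highest member, and for C3, which was called as varying between libraries, a call described below. Both are on the minus strand and are printed 5′ to 3′, at chr4:136886201-136886450 and chr17:57228137-57228386. Capitals mark matches on either strand to the PU.1 core GAGGAA, PU.1 being a macrophage lineage factor, or to the C/EBP pattern TTGCNNAA.
C1qb: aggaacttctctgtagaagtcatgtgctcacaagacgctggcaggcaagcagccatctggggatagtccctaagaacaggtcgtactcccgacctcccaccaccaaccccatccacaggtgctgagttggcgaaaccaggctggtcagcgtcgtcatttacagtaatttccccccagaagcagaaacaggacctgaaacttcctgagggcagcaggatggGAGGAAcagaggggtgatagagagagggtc
C3: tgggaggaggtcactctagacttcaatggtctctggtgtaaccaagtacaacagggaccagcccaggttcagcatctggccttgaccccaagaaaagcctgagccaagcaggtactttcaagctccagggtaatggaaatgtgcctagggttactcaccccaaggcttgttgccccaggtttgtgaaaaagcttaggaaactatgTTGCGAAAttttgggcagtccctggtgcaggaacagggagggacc
The C1qc window is not shown, since its RefSeq start lies inside the annotated transcript C1qc-201. The PU.1 core stood in 3 of the 7 windows (C1qb, C1qc and Cd59a) and in 23.3% of all 32851 windows. The C/EBP pattern stood in the C3 window alone, ending 38 bases before the start, and in 9.56% of all windows. Searched in the same way, the NF-kB pattern (GGG, any 3 bases, TTCC) stood in the C3ar1 window and in 4.65% of all. The interferon-stimulated response element (GAAA, any 2 bases, GAAA) stood in the Cd59a window and in 2.98% of all. The letters TATAAA stood in the C3ar1 window and in 12.4% of all. These matches describe letters in these windows and are not binding sites.

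Library depth was similar, at 33044910, 36769402 and 36522216 expected counts (estimated reads over all genes) in libraries 1, 2 and 3. Protein-coding genes took 38.3%, 26.6% and 34.8% of TPM, the deposited level per transcript length, which is relative to all RNA listed in the library. The median protein-coding gene at 1 TPM or more was higher by 0.48 on the log2 scale in library 1 than in library 2, and the SD of a TPM value includes this shift. Of 10 macrophage markers, 10 stood at 10 TPM or more in each library, with a median of 137 TPM. Most markers of other cells were low. The summed level in libraries 1, 2 and 3 was 67.9, 54.2 and 50.8 TPM for 10 neutrophil markers, with Ly6g at a count of 0. It was between 0.04 and 0.06 TPM for 8 fibroblast and stromal markers and between 0.44 and 0.81 TPM for 8 hepatocyte markers, of which 7, with Alb among them, had a count of 0. It was 0.7 to 1.7 TPM for 8 dendritic cell markers, 4.92 to 7.89 TPM for 8 B cell markers, and 0.54 to 1.27 TPM for 6 mast cell markers. Of the neutrophil markers, 3 stood at 10 TPM or more in each library. They were S100a9 (19.8 ± 2.41 TPM), Csf3r (19.7 ± 4.12 TPM) and S100a8 (11.9 ± 0.376 TPM). In bulk RNA, fewer cells of a type and less RNA per cell cannot be told apart.

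The complement genes spanned more than 3 orders of magnitude, from C1qb at 938 ± 123 TPM (mean ± SD, n = 3 throughout) to Cd55 at 0.283 ± 0.166 TPM. A level of 1 TPM or more in each library was reached by 7 of the 9 members, and 100 TPM or more by 4. In the second quantification that the authors deposited for the same libraries, 6 and 2 members did so, with C3ar1, Cfp and Cd59a falling short. Of all 22028 protein-coding genes, 41.4% and 1.91% (9128 and 421) did so in the first quantification, and 6953 and 98 in the second. The median level in the first was 68.2 TPM over the members and 0.197 TPM over protein-coding genes. The members were chosen with earlier results known, so these shares are a description.

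**Figure D1:**
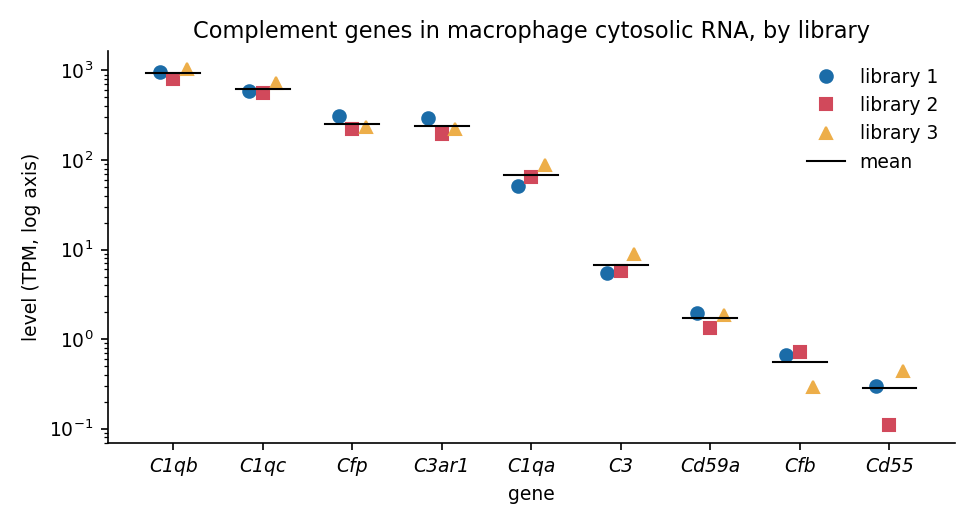
Level of the 9 complement genes in TPM on a log axis, ordered by mean, with 1 point per library and a line at the mean. The libraries of C1qb lie between 806.4 and 1049 TPM and those of Cd55 between 0.11 and 0.44 TPM.

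C1qb and C1qc, 2 of the chains of C1q, were the most abundant members. C1qb stood at 959, 806.4 and 1049 TPM in libraries 1, 2 and 3 and ranked 31 among protein-coding genes. C1qc stood at 589, 557 and 716 TPM (621 ± 84.2) and ranked 52. In TPM, library 3 was the highest for both genes and library 2 the lowest, an order that changed with the scale, and the values of the genes did not overlap. The log2 ratio of C1qb over C1qc was 0.70, 0.53 and 0.55 (0.60 ± 0.09), a 1.51-fold difference that held in 3 of 3 libraries and is larger than the spread between them.

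C1qa, the remaining chain, stood far below its neighbours although the assembled protein holds the chains in equal number. Its levels were 51.3, 64.6 and 88.6 TPM (68.2 ± 18.9), lowest in library 1 and highest in library 3, and it ranked 731 among protein-coding genes. C1qb exceeded C1qa 18.7-fold, 12.5-fold and 11.8-fold in libraries 1, 2 and 3, a log2 ratio of 3.81 ± 0.36. C1qc exceeded C1qa 11.5-fold, 8.63-fold and 8.08-fold, a log2 ratio of 3.21 ± 0.27. Both ratios were highest in library 1. In the second quantification, C1qb exceeded C1qa 17.5-fold, 12.3-fold and 11.7-fold, so the gap did not depend on which was used.

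The C1q transcripts were of similar length. Each of the 3 genes has 3 exons in its main transcript, of 1040 nt for C1qa, 1088 nt for C1qb and 1203 nt for C1qc. The deposited posterior SD of the expected count, which covers only doubt in assigning reads among annotated genes, was 0 in each library for all 3 genes. Expected counts were 1776, 3342 and 3696 for C1qa, 35169, 44190 and 46243 for C1qb, and 24457, 34573 and 35648 for C1qc. The GC content of the transcript was 59.5% for C1qa, 57.4% for C1qb and 57.5% for C1qc. Whether reads covered the whole C1qa transcript, and why its reads were fewer, was not tested.

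**Figure D2:**
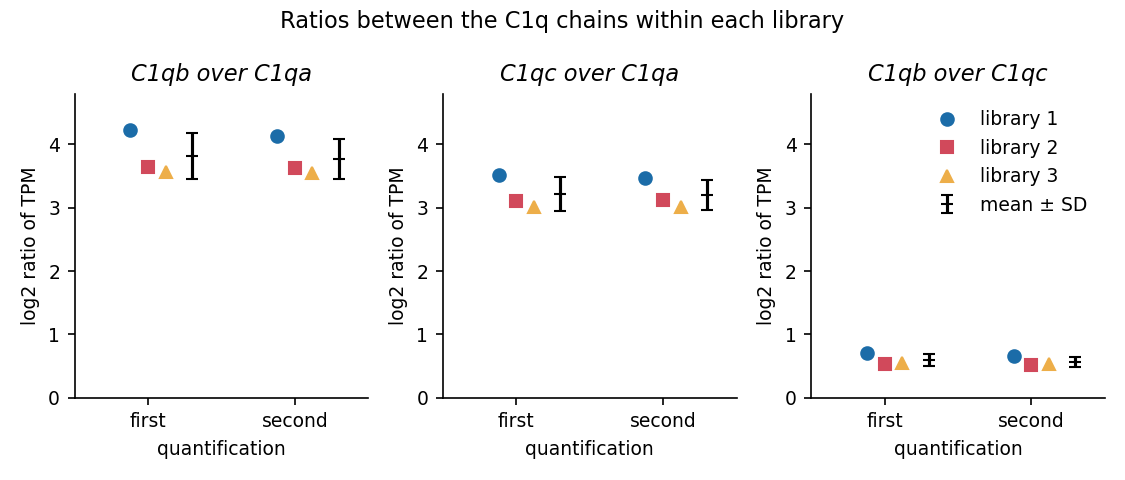
Log2 ratio of TPM between pairs of C1q chains within each library (points), with mean ± SD, in the first and second deposited quantification. C1qb and C1qc lie above C1qa by more than 3 on the log2 scale in each library, and C1qb above C1qc by 0.51 to 0.70.

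Properdin and the C3a receptor formed the next step of the order, at nearly the same level. Cfp stood at 312, 219 and 232 TPM (254 ± 50.2, rank 192) and C3ar1 at 291, 195 and 224 TPM (237 ± 49.1, rank 213). Library 1 was the highest for both, and the values of the genes overlapped. Within each library Cfp was the higher, by 0.10, 0.17 and 0.05 on the log2 scale. The mean of these differences was 0.11 ± 0.06, and the means of the genes differed 1.07-fold. In the second quantification Cfp was also the higher in 3 of 3 libraries. Both genes have a posterior SD of 0. C1qc exceeded Cfp by 0.92, 1.35 and 1.63 on the log2 scale, and C3ar1 exceeded C1qa by 2.50, 1.60 and 1.34. The values of C1qc and Cfp, and those of C3ar1 and C1qa, did not overlap.

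C3, the component on which all pathways converge, was present at a low level. It stood at 5.47, 5.70 and 8.91 TPM (6.69 ± 1.92, rank 5551), 10.2-fold under C1qa, with library 3 the highest. Expected counts were 1033, 1774 and 2181, which leave little counting error. The microRNA gene Mir6978, annotated inside C3 on the same strand, had a count of 0 in each library.

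Factor B was close to the limit of what counted as present. Cfb stood at 0.66, 0.72 and 0.29 TPM (0.557 ± 0.233), from 56.4, 82.1 and 22 expected counts, with library 3 the lowest. Its level is uncertain, since the annotated gene Gm20547 spans it on the same strand and C2, the homologous protease component of the classical pathway, lies 85 bp away. Mir6972 also lies inside Cfb and had a count of 0. The posterior SD of the Cfb count reached 8.23% of the count. The second quantification gave it more reads, with estimated counts of 97.0, 184 and 73.0. Gm20547 itself had 1.25, 1.39 and 0 expected counts, and C2 had 25.3, 15.5 and 24.1. Nelfe, which lies 1 bp from Cfb on the opposite strand, had 755, 825 and 727. Whether reads of Nelfe were counted for Cfb was not tested.

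The membrane inhibitors were also low. Cd59a, which encodes an inhibitor of the membrane attack complex, stood at 1.96, 1.33 and 1.84 TPM (1.71 ± 0.335) from 122, 124 and 135 expected counts. Its values did not overlap with those of C3 above it or Cfb below it. Its neighbour and paralog Cd59b, which lies 4613 bp away, had 1, 2 and 2 counts, and the posterior SD of both was 0. Cd55 stood at 0.30, 0.11 and 0.44 TPM from 31, 18 and 49 counts, with library 2 the lowest. The paralog Cd55b had a count of 0 in each library, as did Gm16083, an antisense gene that overlaps Cd55. Cfb and Cd55 overlapped, and their order changed between libraries, with log2 ratios of 1.14, 2.71 and -0.60. In the second quantification Cfb was the higher in 3 of 3 libraries, with log2 ratios of 2.50, 4.26 and 1.58.

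Of the 8 neighbouring pairs in the order, 7 had the same sign in all 3 libraries and 6 had values that did not overlap. A sign-flip test over 3 libraries cannot give a p below 0.25, so none was run. For the same 8 pairs in the second quantification, 7 had 1 sign in each library. There Cfb exceeded Cd59a in library 2, with a log2 ratio of Cd59a over Cfb of -0.43.

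Most members were carried by a single transcript. C1qa, C1qb and C3ar1 have 1 annotated transcript each. In C1qc the coding transcript C1qc-201 held 99.9% ± 0.0164 of TPM, and C1qc-202, a noncoding form, the rest. In Cfp the coding transcript Cfp-201 held 98.4% ± 0.322, and the short noncoding Cfp-202 held 1.27%, 1.90% and 1.49%. With these 5 genes each library had 90% or more of TPM in 1 transcript. For the 3 with 1 annotated transcript this share is fixed by the annotation. C3-201, of 5136 nt and 41 exons, held 89.6%, 100% and 100% of C3 TPM, and in library 1 the short transcripts C3-202 (662 nt) and C3-203 (554 nt) held 2.74% and 7.68%. As a share of expected counts C3-201 held 99.7% ± 0.479. Cd59a-201 held 100%, 100% and 89.7% of Cd59a TPM. In the second quantification C3-201 held 76.0%, 100% and 100% of C3 TPM, with C3-202 at 17.0% in library 1. Cd59a-201 held 86.3%, 100% and 89.7% there.

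The low genes gave no stable isoform picture. Cfb has 8 annotated transcripts, and the leading one was Cfb-202 in library 1 (71.2%), Cfb-201 in library 2 (38.4%) and Cfb-205 in library 3 (50.0%). At these counts the split between Cfb transcripts cannot be read. Cd55 had 24.1%, 60.0% and 25.0% of its TPM in its retained-intron transcripts, from 8.99, 12.0 and 10.5 expected counts. The coding Cd55-201 had 22.0, 6.03 and 38.5 expected counts, fewest in library 2, where the retained-intron share was highest.

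In the main fit, C1qa and C3 were called as varying between the libraries beyond what genes of their level do, and the other 7 members were not. Both calls were lost in some of the alternatives described below. edgeR was fitted to all genes as 1 group, and a chi-square goodness-of-fit test on each gene's deviance, adjusted by Benjamini-Hochberg, asked whether the gene varied beyond the trend. All 9 members passed the filter on low counts, and 2 were called, against a background of 1.66% of 12231 tested genes. C1qa had log2 CPM (counts scaled to library size) of 5.74, 6.54 and 6.64 in libraries 1, 2 and 3 (edgeR adjusted p = 0.0155). C3 had 4.96, 5.63 and 5.88 (edgeR adjusted p = 0.0203). Both were lowest in library 1 and highest in library 3. Genes called and lowest in library 1 made up 0.744% of those tested, and genes called with library 1 under library 2 under library 3 made up 0.401%.

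Both calls were lost without library 1 and also without library 3, and were kept without library 2. Without library 1 the edgeR adjusted p was 1.00 for C1qa and for C3, and without library 3 it was 0.125 and 0.383. Without library 2 it was 0.04999 for C1qa and 0.0384 for C3. Over all alternatives tried it ranged from 0.0155 to 1.00 for C1qa, the lowest being the value above, and from 0.0134 to 1.00 for C3. The C1qa transcript has a higher GC content than 94.7% of tested genes, and C3, at 53.3%, one higher than 68.1%. The 578 genes within 1 point of the GC content of C1qa had a median deviation in library 1 of -0.07 from their means, where C1qa had -0.57. For C3 the 1291 such genes had -0.02, where C3 had -0.53. With each library's trend on GC content removed, an alternative added after seeing the data, the edgeR adjusted p was 0.0543 for C1qa and 0.0282 for C3. Hepatocyte and stromal markers stood below 1 TPM in sum in each library. Summed neutrophil markers were highest in library 1 in TPM, and were 177, 204 and 146 when TPM was rescaled to protein-coding genes, highest in library 2. The 4 of these markers at 1 TPM or more in each library differed on the rescaled scale. Ngp (18.9, 15.2 and 7.42) and Csf3r (63.1, 60.6 and 54.0) were highest in library 1. S100a9 (56.8, 77.0 and 49.2) and S100a8 (32.2, 43.8 and 33.7) were highest in library 2. The part of neutrophil, hepatocyte or stromal RNA in the differences of C1qa and C3 between libraries was not tested.

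**Figure D3:**
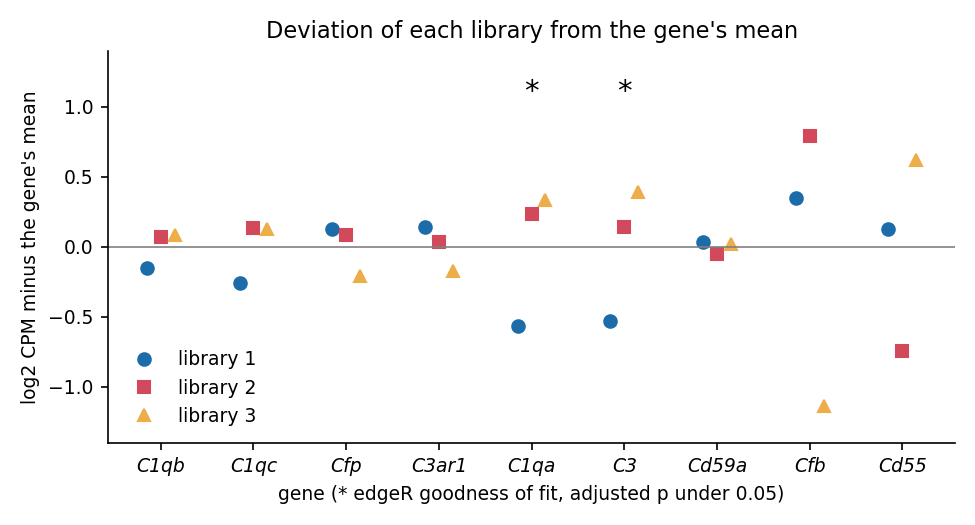
Deviation of log2 CPM in each library from the gene's mean over the 3 libraries, for the 9 members in order of level, with a star over genes called by edgeR. C1qa and C3 lie at -0.57 and -0.53 in library 1, and Cfb at -1.14 in library 3 is not called.

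In CPM, C1qb and C1qc were also lowest in library 1, by smaller amounts, while in TPM library 2 was the lowest. C1qb had log2 CPM of 10.05, 10.27 and 10.28 and C1qc 9.52, 9.91 and 9.91, each with an edgeR adjusted p of 1.00. Cfp (9.12, 9.07 and 8.78) and C3ar1 (10.57, 10.46 and 10.26) went the other way, lowest in library 3, also with adjusted p of 1.00 by edgeR. Cfb had 0.76, 1.20 and -0.72 and Cd55 had -0.08, -0.95 and 0.42. The range of Cfb over the libraries, 1.92 on the log2 scale, was the widest of the members, with an unadjusted p of 0.00945 and an adjusted p of 0.301 by edgeR. Cd59a had 1.88, 1.80 and 1.87, the narrowest range. The median range was 0.39 over the members and 0.28 over all tested genes.

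The rest of the pathway was uneven, with receptors present and the terminal components near or at 0. Of 51 other complement genes in 5 lists, 13 (25.5%) reached 1 TPM in each library, 8 reached 10 TPM, and 20 had a count of 0 in each. Of all 22028 protein-coding genes, 9128 (41.4%) reached 1 TPM, 3711 reached 10 TPM and 7613 had a count of 0 in each. The median was 0.0233 TPM over the 51 genes and 0.197 TPM over protein-coding genes. With a count of 0, up to 3 counts could have been missed, or 0.0908, 0.0816 and 0.0821 CPM in libraries 1, 2 and 3, counting error only. The second quantification gave some of these genes more, with 2, 16 and 4 counts for C4bp, 2.00, 10.05 and 2.00 for Csmd1 and 4, 1.74 and 0 for Masp2.

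Receptors and C1q-binding proteins were the largest group present, with 9 of 11 at 1 TPM or more and a median of 30.9 TPM. The C5a receptor C5ar1 stood at 227, 142 and 198 TPM (189 ± 43.2), under C3ar1 in each library, with values of the genes that overlapped. Of the complement receptor 3 chains, Itgb2 stood at 132 ± 30.7 and Itgam at 30.9 ± 7.92 TPM. Calr (249 ± 20.1 TPM), Lrp1 (192 ± 44.4 TPM), Cd93 (103 ± 32.9 TPM) and C1qbp (22.6 ± 4.78 TPM) encode proteins described as binding C1q or its partners, and have other roles. The B cell receptor for C3d, Cr2, had 1, 0 and 1 counts.

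Among 16 regulators, 2 stood at 1 TPM or more. Cr1l, which encodes the rodent membrane regulator Crry, stood at 38.0, 19.5 and 27.7 TPM (28.4 ± 9.27), far above Cd55 and Cd59a in each library, with library 1 the highest. Cfi, C4bp, Cd55b, Vtn, Cfhr2, Cpn2, Susd4 and Csmd1 had a count of 0.

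The 16 other genes of the classical and lectin pathways had 2 members at 1 TPM or more, Colec12 (6.34 ± 1.11 TPM), a collectin expressed as a scavenger receptor, and the ficolin Fcna (4.06 ± 0.668 TPM). C1ra, a protease that circulates bound to C1q, stood at 0.933 ± 0.274 TPM, and its partner C1s1 had 0, 1 and 0 counts. The values of Cr2, Fcna, C1ra and C1s1 are outside the rule for named genes and were chosen after they were seen. Those of C2 are also outside it. The rule gave genes with a count of 0 by name only, so the second-quantification counts of C4bp, Csmd1 and Masp2 go beyond it. C1rb, Masp2, Mbl1, Mbl2 and Colec10 had a count of 0. Reads of C1ra and its near-copy C1rb could be split, though the posterior SD of C1ra was at most 0.73 reads. None of the terminal components reached 1 TPM, with C8g the highest (0.387 ± 0.222 TPM), and Hc, which encodes C5, C6, C7, C8a and C8b had a count of 0. So did Cfd, the factor D that activates factor B.

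**Figure D4:**
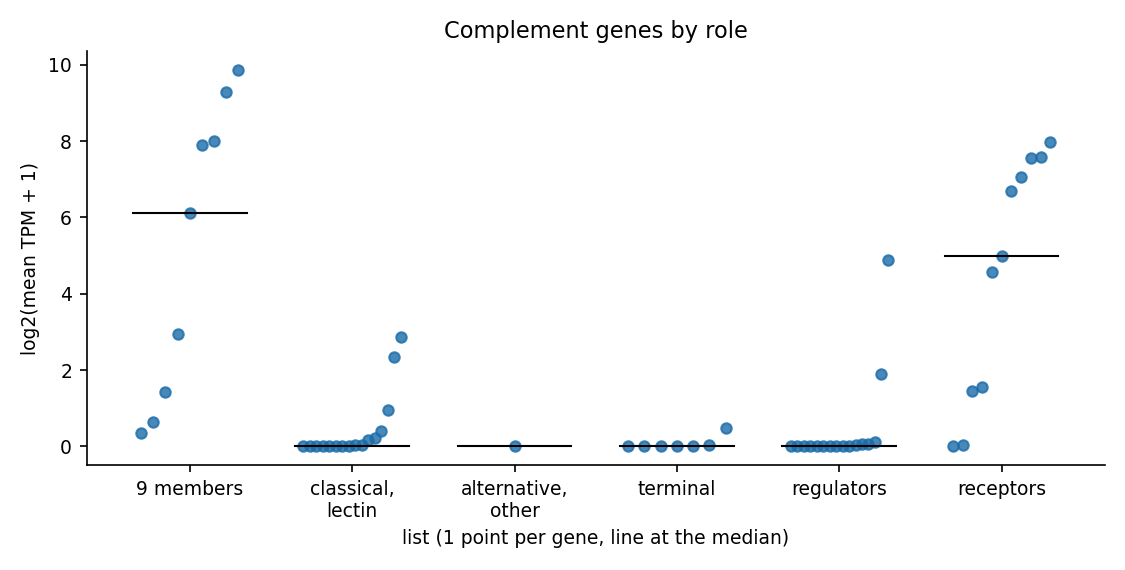
Mean level of each complement gene as log2(mean TPM + 1), by list, with 1 point per gene and a line at the list's median. C1qb is the highest gene, and no terminal component is above C8g, at a mean of 0.387 TPM.

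Of the 51 genes, 16 passed the filter on low counts and 0 were called as varying by edgeR (2 at an unadjusted p under 0.05, lowest edgeR adjusted p = 0.466), beside the background of 1.66%.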

How the data were processed

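For each of the 3 libraries the authors deposited a gene table and 2 transcript tables, made against mm10 with GENCODE M21, per the notes deposited with them. The first pair has RSEM's layout and the other transcript table, called the second quantification, has kallisto's. The sources used here do not give tool names, versions or the strand setting, so overlapping genes are uncertain. Expected counts (estimated reads, not whole) and TPM were computed by the authors and used as deposited. All 55536 gene identifiers matched GENCODE M21.

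Levels are means of TPM with the SD over 3 libraries. Expected counts were rounded, and the spread of each gene over the libraries was examined in edgeR 4.0.16 (R 4.3.3), using filterByExpr, TMM factors, trended dispersion, a prior count of 0.5 and a threshold of 0.05. The step was also run on counts simulated from its own fitted dispersion, so that run cannot show whether real genes vary beyond the trend. GC content is that of each gene's transcript with the highest mean count, known for 12224 of 12231 tested genes. Python 3.11.15, pandas 2.3.3 and numpy 2.4.6 did the rest. The members and gene lists were chosen with earlier results of these data known. Named were all members and, of the other lists, genes that reached 10 TPM in each library, each list's highest gene where none reached that, genes called as varying and genes with a count of 0; a few list genes are not reported here. The alternatives were other normalization, filter, dispersion, detection limit, TPM denominator and quantification, a GC correction, and leaving out each library.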

Additional observations from a re-analysis of the deposited data

How the results depend on the processing

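The number of genes varying between libraries was 203 and fell to between 89 and 132 when 1 library was left out, with fewer libraries in each fit. It was 298 with common dispersion, 221 with no filter on low counts, 200 in the second quantification, 208 with the GC trend removed and 203 with RLE normalization. C1qa lost its call with common dispersion (edgeR adjusted p = 0.174), and so did C3 (0.219), while Cfb gained one (edgeR adjusted p = 0.0041). C3 also lost its call with no filter on low counts (edgeR adjusted p = 0.0588), where more genes were tested. The C1q ratios stayed within 1 SD in the second quantification and with 1 added to each TPM. For C1qb over C1qa the log2 values were then 3.77 and 3.79. Leaving 1 library out gave 3.60 to 3.93, but with 3 libraries such a mean cannot move by 1 SD. TPM levels depend on the scale: C1qb was at 938 TPM, 310.5 in the second quantification and 2851 relative to protein-coding genes, and C1qa at 68.2, 22.2 and 210.5. Mean levels moved by more than 1 SD in 25 of 54 cases, all of them changes of quantification, TPM denominator or unit. Such changes left the mean within 1 SD only for C1qa as CPM and Cfb in the second quantification. The remaining cases left 1 library out, where a mean over 3 libraries cannot move by 1 SD. Without length, as CPM, 6 of 8 neighbouring pairs kept their direction in each library; C3ar1 then exceeded Cfp in each and had the highest mean (1386 CPM, against 1179 for C1qb). Detected other complement genes numbered 9 at 5 TPM, 14 at 0.5 TPM and 10 in the second quantification, against 13. No paired analysis was possible because the libraries form 1 group. Depth limits Cfb and Cd55, at under 100 counts in each library.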
